A study of Homo sapiens with 18 samples.

Results

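Genes of the hypoxia-inducible factor (HIF) pathway, 10 in all, were followed in RPE-1 cells, an hTERT-immortalized human line from the pigmented layer behind the retina. They were taken by name from a count table of 33121 genes. The set holds HIF1A, its prolyl hydroxylase genes EGLN1 and EGLN3, and 7 genes outside glycolysis that are known to be induced by low oxygen: VEGFA, ADM, NDRG1, CA9, ANKRD37, P4HA1 and P4HA2. The 18 libraries form 6 groups of 3. Cells received an siRNA against MondoA (siMondoA), an siRNA against Mlx (siMlx) or a control siRNA (siControl), each followed by doxorubicin (DXR), a DNA-damaging anthracycline, or left untreated. MondoA is the protein of the gene MLXIP, and Mlx, of the gene MLX, is its partner. Every group, siControl included, carried a transfected siRNA. Transfection lasted 2 days, and DXR was then present at 150 ng/ml for 3 days. No group was labelled as kept in low oxygen, so "hypoxia-induced" names a known property of the genes and not a treatment of these cells. The labels do not give the number of siRNAs per target, so an effect of a knockdown and an effect of that siRNA's own sequence cannot be told apart. Untreated libraries carry a tag D0 in their names and DXR-treated ones a tag D5, which the labels leave unexplained, so DXR and a possible difference in harvest day cannot be told apart either.

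In normal oxygen the EGLN enzymes hydroxylate prolines of the HIF-1α protein. The VHL ubiquitin ligase complex recognises the hydroxylated protein, which is then degraded. When oxygen falls, HIF-1α accumulates, pairs with ARNT and binds short ACGTG or GCGTG words near its target genes. Most of this control acts on the protein, so the HIF1A transcript does not report HIF-1α activity. MondoA and Mlx form a sugar-responsive transcription factor that binds E-box words of the form CACGTG, and TXNIP is its best-known target gene.

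The libraries held 15503423 to 29219280 counts, and 13676 genes passed a filter on low counts. The labels do not say that the replicates of a group were separate cultures, so p-values measure the spread between these libraries, which may be technical. MLXIP stood at 3.34, 4.57 and 3.63 CPM (counts scaled to library size) in untreated siMondoA libraries, against 69.5, 72.9 and 63.7 CPM in untreated siControl libraries. MLX stood at 6.79, 7.12 and 7.10 CPM in untreated siMlx libraries, against 25.8, 27.4 and 25.7 CPM in untreated siControl libraries. MLX was higher with siMondoA, at 52.1, 48.3 and 47.2 CPM. TXNIP fell by 3.46 on the log2 scale with siMondoA and by 2.59 with siMlx. Of 8 markers of retinal pigment epithelium, the defining genes RPE65 and RLBP1 had 60 and 21 counts over all libraries and were not tested. The summed marker level was 974 to 1393 CPM over the DXR groups. In untreated cells it was 628 to 845 CPM with siMondoA, 362 to 456 CPM with siMlx and 554 to 741 CPM with siControl. The keratin genes KRT8 and KRT18, which other epithelia express too, made up 95.9% to 96.8% of this sum in DXR libraries and 89.4% to 94.0% in untreated ones. OTX2, a transcription factor of the pigment epithelium in the same list, went the other way with DXR, at 14.1, 14.5 and 12.8 CPM in DXR-treated siControl cells, against 20.1, 21.4 and 22.4 CPM in untreated siControl cells. The sum of 8 fibroblast markers was 720 to 1080 CPM over the DXR groups and 433 to 634 CPM over the untreated groups. Among 8 markers of blood, endothelium and other epithelium, HBB had 0 counts and the sum was 65.1 to 145 CPM, of which CD68, a lysosomal protein gene that many cell types express, made up 96.2% to 99.0% in every library. No other gene of that list passed 2.35 CPM. The summed level of the small cytoplasmic RNAs RN7SL1 and RN7SL2 was 2.25 to 12.5 CPM in 15 libraries and 11.4 to 30.1 CPM in the untreated siControl libraries. The part of these marker sums and of the RN7SL level in the results was not tested. In bulk RNA, fewer cells that express a gene and less RNA per cell cannot be told apart.

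Between genes, levels are compared per length, as the deposited RPKM (reads scaled to gene length and library size). In untreated siControl cells, HIF1A had the highest mean of the 10, at 101.5 ± 5.37 RPKM (SD, n = 3). ADM and VEGFA followed at 43.0 ± 4.86 and 42.6 ± 6.48 RPKM, a pair whose difference lay within their spread. P4HA1 stood at 30.4 ± 4.45, P4HA2 at 16.9 ± 1.59 and EGLN1 at 6.09 ± 0.195 RPKM. NDRG1 was lower, at 2.85 ± 0.364 RPKM. ANKRD37 and CA9 were near the limit of detection at 0.745 ± 0.207 and 0.220 ± 0.0561 RPKM. EGLN3 had 7 counts over all 18 libraries and did not pass the filter, so 9 of the 10 genes were tested.

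**Figure D1:**
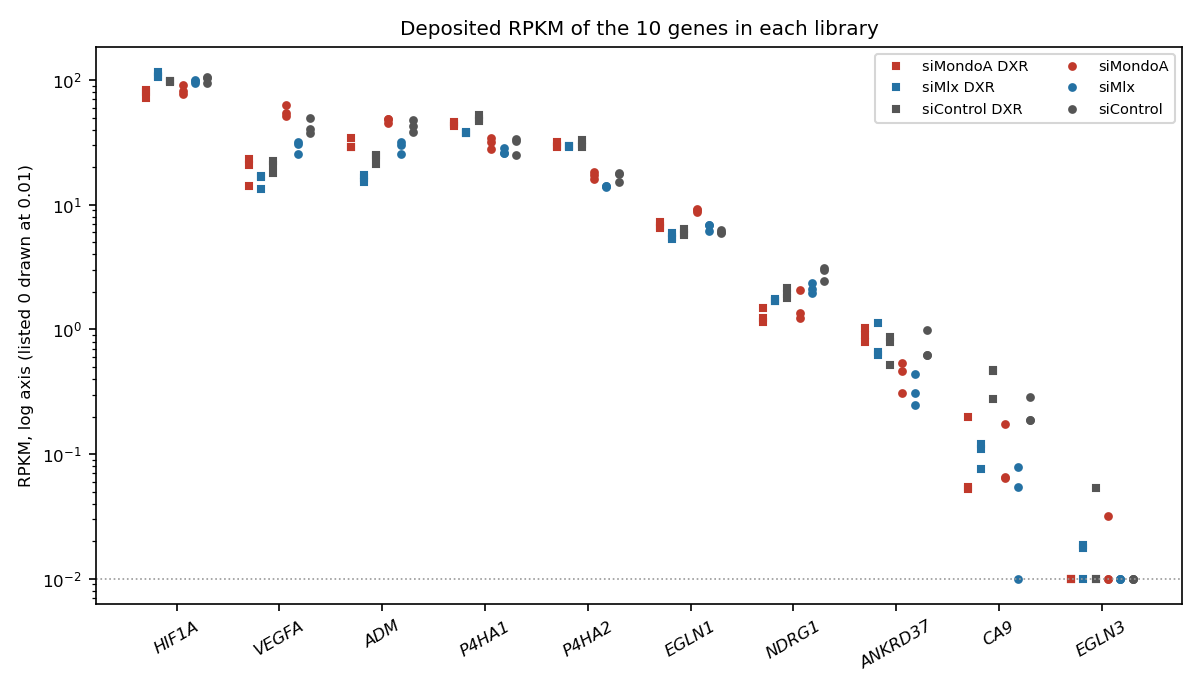
Deposited RPKM of each of the 10 genes (x axis) in each library on a log axis, with squares for DXR and circles for untreated libraries, and colours for the siRNA. Values listed as 0 are drawn at 0.01. The group means of HIF1A lie between 78.3 and 109.5 RPKM, while CA9 and EGLN3 lie below 1 RPKM in all libraries.

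HIF1A, which encodes the oxygen-regulated HIF-1α subunit, fell with siMondoA in both treatment states. After DXR it stood at 361, 371 and 332 CPM with siMondoA, against 450, 445 and 442 CPM with siControl. In untreated cells it stood at 348, 386 and 321 CPM with siMondoA, against 453, 448 and 404 CPM with siControl. All siMondoA libraries lay below all siControl libraries of the same treatment. The log2 fold changes were -0.33 after DXR (SE 0.06, adjusted p 0.000715) and -0.31 in untreated cells (SE 0.06, adjusted p 0.000558), from edgeR's quasi-likelihood F test, adjusted by Benjamini-Hochberg over the 13676 genes, as were the other adjusted p-values. With siMlx after DXR, HIF1A stood at 503, 522 and 492 CPM, above every siControl library, with a log2 fold change of 0.18 (SE 0.06, adjusted p 0.0343). That call was lost without siMlx DXR replicate 2 or any one of the 3 siControl DXR libraries, with adjusted p 0.0669 to 0.11. In untreated siMlx cells HIF1A was at 395, 418 and 419 CPM, overlapping siControl (log2 fold change -0.08, adjusted p 0.305). DXR itself moved HIF1A by 0.30 in siMlx cells (adjusted p 0.000405), by 0.01 in siMondoA cells (adjusted p 0.897) and by 0.03 in siControl cells (adjusted p 0.670).

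EGLN1, the main oxygen-sensing prolyl hydroxylase of HIF-1α, rose with siMondoA. After DXR it stood at 61.4, 55.5 and 55.6 CPM with siMondoA, at 51.6, 46.6 and 45.4 CPM with siMlx and at 48.8, 53.5 and 50.7 CPM with siControl. The siMondoA difference was 0.17 on the log2 scale (SE 0.06, adjusted p 0.0495). This call was lost in 8 alternatives. Among them were the fits without siControl DXR replicate 1 or 3 and without any one of the 3 siMondoA DXR libraries, with adjusted p 0.0552 to 0.22, and the fit with a replicate block, with adjusted p 0.0511. In untreated cells the levels were 71.5, 68.8 and 70.7 CPM with siMondoA, against 48.6, 47.3 and 49.4 CPM with siControl, and the groups did not overlap. The log2 fold change was 0.54 (SE 0.06, adjusted p 5.68e-07). With siMlx the untreated libraries held 48.2, 53.9 and 53.5 CPM, a log2 fold change of 0.10 (adjusted p 0.196). The siMondoA difference was smaller after DXR than in untreated cells, by -0.37 on the log2 scale (SE 0.09, adjusted p 0.0112, interaction term). Without siControl DXR replicate 2 the interaction was -0.31 with adjusted p 0.0555. In siMondoA cells DXR lowered EGLN1 by a log2 fold change of -0.29 (adjusted p 0.000546), against 0.08 in siControl cells (adjusted p 0.313).

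EGLN3, a prolyl hydroxylase that is itself a HIF target, was close to undetected. It had 2 counts in 1 untreated siMondoA library, 1 count in each of 2 siMlx DXR libraries, 3 counts in 1 siControl DXR library and 0 in the others. A count of 0 over the 3 untreated siControl libraries allows a level of up to 0.0388 CPM, counting error only. No difference in EGLN3 was detectable at this depth. EGLN2, the remaining member of the family, had 10 counts in all libraries. Its exons overlap a read-through transcript annotated as RAB4B-EGLN2, and how the authors counted overlapping genes is not given in the sources used here, so its level is uncertain.

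**Figure D2:**
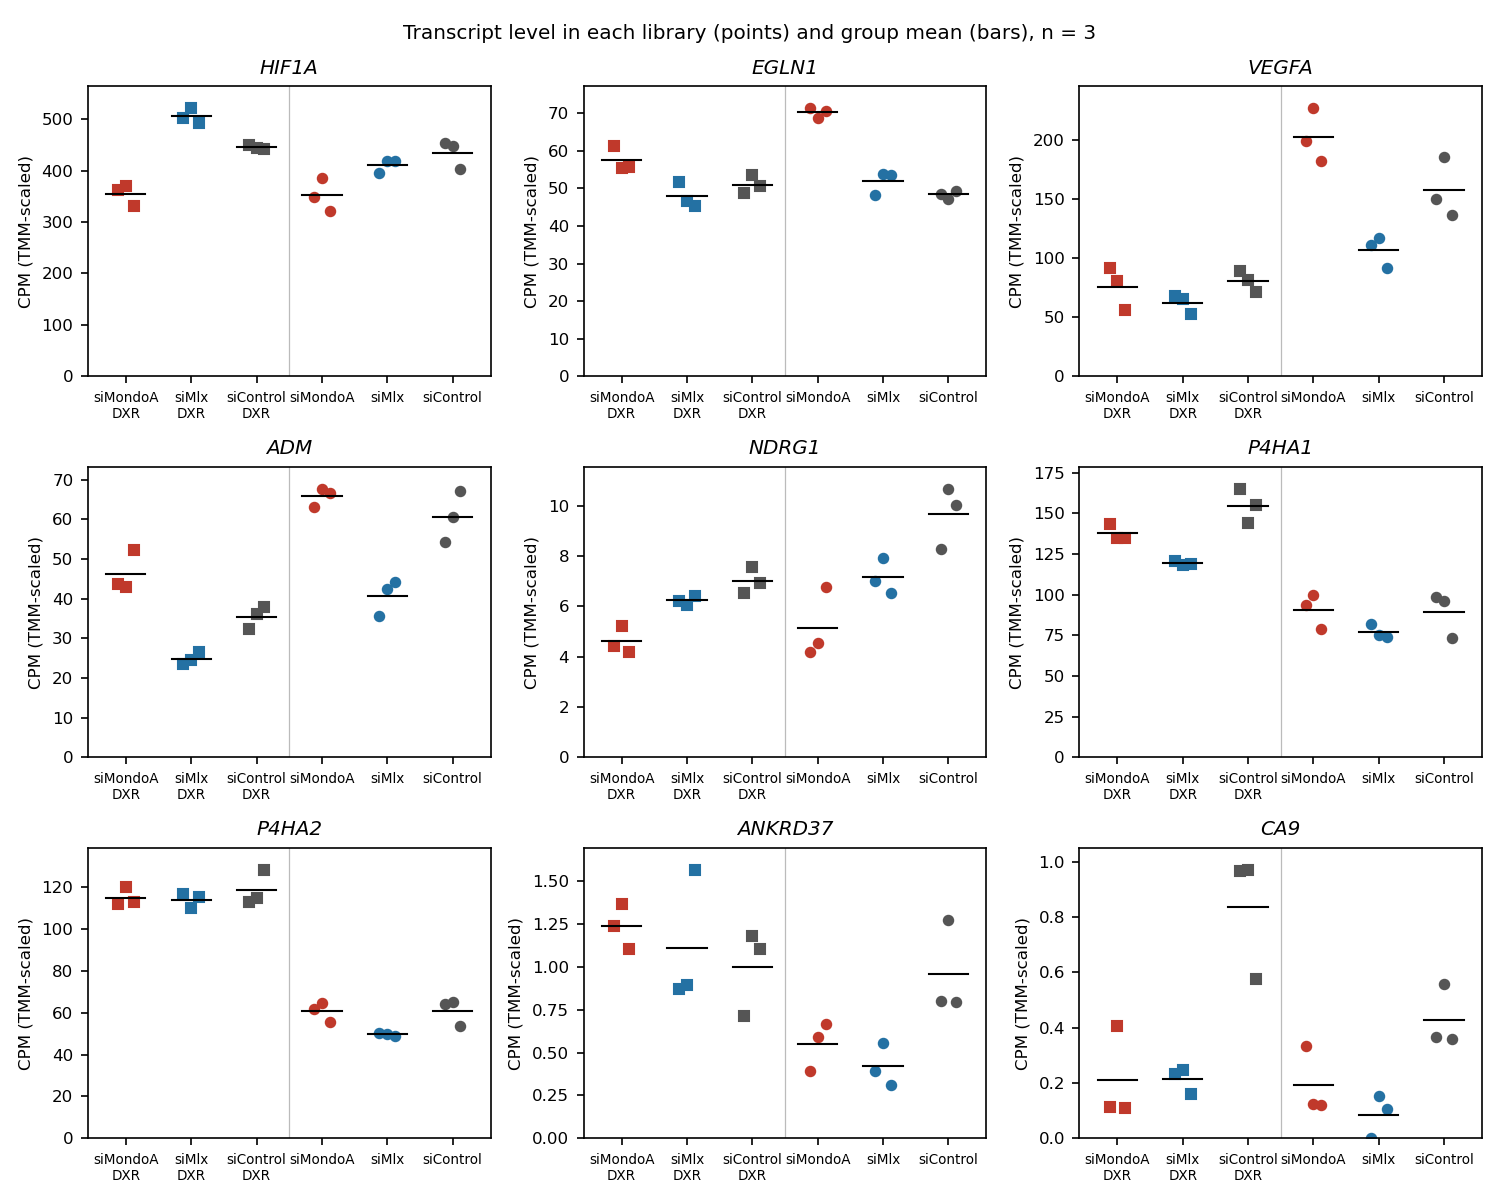
Level of the 9 tested genes in each library (points) with the group mean (bar), as TMM-scaled CPM on axes that start at 0, with DXR groups as squares on the left and untreated groups as circles on the right of each panel. EGLN1 is highest in the untreated siMondoA libraries, VEGFA and ADM are lower in the DXR libraries, and P4HA1 and P4HA2 are higher there.

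VEGFA, an angiogenic growth factor of the retinal pigment epithelium, and ADM, which encodes the vasodilator peptide adrenomedullin, are both secreted products. Both fell with DXR under each siRNA, and both fell with siMlx in untreated cells. VEGFA stood at 89.1, 81.1 and 70.9 CPM in DXR-treated siControl cells, against 150, 185 and 136 CPM in untreated siControl cells. ADM stood at 32.4, 36.2 and 37.9 CPM in DXR-treated siControl cells, against 54.3, 60.7 and 67.1 CPM in untreated siControl cells. Neither pair of groups overlapped. The log2 fold changes with DXR in siControl cells were -0.97 for VEGFA (SE 0.15, adjusted p 1.81e-05) and -0.77 for ADM (SE 0.09, adjusted p 8.53e-07). In siMondoA cells the DXR changes were -1.42 for VEGFA (adjusted p 2.23e-07) and -0.51 for ADM (adjusted p 0.000123). In siMlx cells they were -0.78 for VEGFA (adjusted p 0.000188) and -0.71 for ADM (adjusted p 3.34e-06).

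Untreated siMlx cells held 111, 117 and 92.0 CPM of VEGFA, each below the lowest siControl library (log2 fold change -0.56, SE 0.15, adjusted p 0.0042). They held 35.7, 42.3 and 44.2 CPM of ADM, again each below siControl (log2 fold change -0.57, SE 0.09, adjusted p 3.91e-05). After DXR, ADM was at 23.4, 24.5 and 26.5 CPM with siMlx, and the difference from siControl was -0.52 (SE 0.10, adjusted p 0.00051). VEGFA was then at 68.0, 65.3 and 53.0 CPM with siMlx, each below the lowest siControl library, but its log2 fold change of -0.37 did not pass the test (adjusted p 0.0763). It passed with a replicate block (adjusted p 0.00264), with only the groups compared (adjusted p 0.0148) and with no low-count filter (adjusted p 4.42e-06). In the other 10 of 13 alternatives, DESeq2 and each left-out library among them, it did not pass (adjusted p up to 0.268). With siMondoA neither gene fell. VEGFA stood at 199, 227 and 182 CPM in untreated siMondoA cells, which overlaps siControl, and its log2 fold change was 0.37 (SE 0.15, adjusted p 0.0436). That call was lost with DESeq2 (adjusted p 0.0858) and without siControl replicate 1 or 3 or siMondoA replicate 1 or 2 (adjusted p 0.0746 to 0.18). ADM stood at 63.0, 67.8 and 66.6 CPM in untreated siMondoA cells (log2 fold change 0.12, adjusted p 0.304). After DXR it stood at 43.6, 42.9 and 52.3 CPM with siMondoA, above every siControl library (log2 fold change 0.38, SE 0.10, adjusted p 0.00562). VEGFA stood at 91.6, 80.2 and 55.7 CPM in DXR-treated siMondoA cells, overlapping siControl (log2 fold change -0.08, adjusted p 0.745).

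Of 15 listed ligands and receptors related to VEGFA and ADM, 6 were expressed highly enough to be tested. The VEGF receptor genes FLT1 and FLT4 and the adrenomedullin receptor genes CALCRL, RAMP1, RAMP2 and RAMP3 did not pass the filter. With DXR in siControl cells, 0 of the 6 rose and 5 fell, where 28.1% of all tested genes rose and 28.6% fell, with a median log2 fold change of -0.67 beside -0.01 over all tested genes. NRP2 and NRP1, the neuropilin co-receptors of VEGF ligands, fell by 0.92 and 0.80 on the log2 scale, and the lymphangiogenic ligand VEGFC fell by 0.53. NRP1 also fell with siMlx in untreated cells, with 473, 472 and 558 CPM, against 1006, 988 and 1046 CPM with siControl (log2 fold change -1.02, adjusted p 6.3e-10).

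The promoter of ADM is shown because ADM fell in every siMlx and every DXR comparison. It is given from RefSeq on GRCh38.p14 at chr11:10304823-10305122 on the + strand, from 250 bases before to 50 bases after the annotated start, 5′ to 3′. Capitals mark matches to the core of the HIF-binding word, ACGTG or GCGTG on either strand, here and in the promoters that follow. Of 35116 such promoter windows, 48.4% hold at least 1 match, so a match by itself is common.
ADM: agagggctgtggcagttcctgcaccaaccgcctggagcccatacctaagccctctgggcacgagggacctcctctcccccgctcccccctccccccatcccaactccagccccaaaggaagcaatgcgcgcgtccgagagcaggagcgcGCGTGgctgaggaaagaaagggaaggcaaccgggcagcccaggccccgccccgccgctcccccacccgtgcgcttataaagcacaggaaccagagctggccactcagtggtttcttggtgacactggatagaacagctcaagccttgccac
It holds 1 GCGTG. A match describes the letters of this window only.

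NDRG1, a stress- and hypoxia-induced gene whose protein acts in differentiation and vesicle traffic, fell with siMondoA. After DXR it stood at 4.44, 5.22 and 4.19 CPM with siMondoA, at 6.22, 6.07 and 6.43 CPM with siMlx and at 6.52, 7.58 and 6.95 CPM with siControl. The log2 fold changes after DXR were -0.60 with siMondoA (SE 0.16, adjusted p 0.00848) and -0.17 with siMlx (adjusted p 0.443). It stood at 4.17, 4.53 and 6.77 CPM in untreated siMondoA cells and at 7.02, 7.93 and 6.52 CPM in untreated siMlx cells, against 8.29, 10.7 and 10.0 CPM in untreated siControl cells. Neither untreated knockdown group overlapped siControl. The log2 fold changes were -0.91 with siMondoA (SE 0.15, adjusted p 4.75e-05) and -0.43 with siMlx (SE 0.14, adjusted p 0.0195). The siMlx call was lost without siControl replicate 2 or 3 or siMlx replicate 1 or 3, with adjusted p 0.0535 to 0.0787. DXR lowered NDRG1 in siControl cells by a log2 fold change of -0.46 (SE 0.14, adjusted p 0.0109). Its changes with DXR in siMondoA and siMlx cells were -0.14 (adjusted p 0.482) and -0.20 (adjusted p 0.273).

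CA9, a cell-surface carbonic anhydrase, and ANKRD37, an ankyrin repeat protein, are HIF targets that were expressed at a few counts per library. After DXR, CA9 had 2, 8 and 2 counts with siMondoA and 4, 5 and 3 counts with siMlx, against 19, 19 and 12 counts with siControl. It had 6, 3 and 2 counts in untreated siMondoA libraries and 0, 3 and 2 counts in untreated siMlx libraries, against 11, 11 and 10 counts in untreated siControl libraries. Each DXR knockdown library had fewer CA9 counts than any DXR siControl library. CA9 passed the low-count filter only through the DXR-treated siControl libraries, so its differences from that group are given as a description and support no count of changed genes. After DXR both knockdowns gave a log2 fold change of -1.93 (SE 0.49, adjusted p 0.00597 with siMondoA and 0.00497 with siMlx). In untreated cells the log2 fold changes were -1.12 with siMondoA (SE 0.54, adjusted p 0.0979) and -2.17 with siMlx (SE 0.64, adjusted p 0.00861). Without siMondoA replicate 1 the siMondoA change in CA9 was -1.71 with adjusted p 0.0454. CA9 rose with DXR in siControl cells by 0.99 (SE 0.40, adjusted p 0.0412), a call that was lost with DESeq2 (adjusted p 0.126), with no filter (adjusted p 0.11) and without siControl replicate 1 or 3 or siControl DXR replicate 1 or 2 (adjusted p 0.119 to 0.134). Exons of CA9 overlap those of ARHGEF39 on the opposite strand over 643 bases, 38.5% of the exon length of CA9. The library kit keeps strand, but the strand setting of the counting is not given in the sources used here, so reads of the pair may have been mixed. ARHGEF39 changed by -1.65 with siMondoA (adjusted p 1.52e-05) and by -0.42 with siMlx (adjusted p 0.119) in untreated cells, and by -2.29 with DXR in siControl cells (adjusted p 4.51e-07), where CA9 was higher.

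ANKRD37 fell with siMlx in untreated cells. After DXR it had 22, 27 and 20 counts with siMondoA, 15, 18 and 29 counts with siMlx and 14, 23 and 23 counts with siControl, and the groups overlapped. In untreated cells it had 7, 14 and 11 counts in siMondoA libraries and 7, 11 and 6 counts in siMlx libraries, against 24, 25 and 22 counts in siControl libraries. The log2 fold changes were -1.13 with siMlx (SE 0.35, adjusted p 0.0116) and -0.76 with siMondoA (SE 0.33, adjusted p 0.0672, or 0.0468 with a replicate block). The siMlx call was lost without siControl replicate 2 or siMlx replicate 3, with adjusted p 0.0551 and 0.0562. DXR raised ANKRD37 in siMondoA cells (log2 fold change 1.17, SE 0.33, adjusted p 0.00578) and in siMlx cells (1.38, SE 0.35, adjusted p 0.00216), against 0.10 in siControl cells (adjusted p 0.796). The interaction terms were 1.07 for siMondoA (adjusted p 0.142) and 1.28 for siMlx (adjusted p 0.0777), so a difference in the DXR response was not shown. Exons of ANKRD37 overlap UFSP2 on the opposite strand over 909 bases, 35.2% of its exon length, and UFSP2 had 8745 counts in all, beside 318 for ANKRD37. UFSP2 changed by -0.37 with siMlx in untreated cells (adjusted p 0.0042), by -0.25 with DXR in siMondoA cells (adjusted p 0.0431) and by -0.16 with DXR in siMlx cells (adjusted p 0.171).

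The promoters of CA9 and ANKRD37 are shown because both genes were lower with siMlx in untreated cells. VEGFA, ADM, NDRG1 and P4HA2 were lower there too, so this does not set the pair apart. Whether a match bears on any of these changes was not tested. The windows of CA9 and ANKRD37 lie at chr9:35673678-35673977 and chr4:185396591-185396890, both on the + strand of GRCh38.p14.
CA9: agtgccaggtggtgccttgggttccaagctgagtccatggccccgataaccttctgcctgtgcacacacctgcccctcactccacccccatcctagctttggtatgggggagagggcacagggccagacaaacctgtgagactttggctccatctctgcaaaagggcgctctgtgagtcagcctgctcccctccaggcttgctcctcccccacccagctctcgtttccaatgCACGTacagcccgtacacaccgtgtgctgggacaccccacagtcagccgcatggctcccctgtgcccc
ANKRD37: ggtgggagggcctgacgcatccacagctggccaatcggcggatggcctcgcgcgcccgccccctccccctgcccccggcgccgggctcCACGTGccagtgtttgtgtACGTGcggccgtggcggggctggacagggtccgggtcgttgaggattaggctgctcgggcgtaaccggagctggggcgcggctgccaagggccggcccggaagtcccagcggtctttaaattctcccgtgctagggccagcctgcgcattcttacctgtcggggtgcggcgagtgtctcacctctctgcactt
The CA9 window holds 1 match, ACGTG on the reverse strand. The ANKRD37 window holds 3, of which 2 are the opposite strands of 1 CACGTG word, which is also the E-box word that MondoA and Mlx bind. CACGTG was found in 7.26% of the 35116 windows. The promoters of EGLN3 and P4HA2 and the second HIF1A entry held no match to ACGTG or GCGTG. Entries for VEGFA and NDRG1 were not used here.

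P4HA1 and P4HA2 encode the catalytic subunits of collagen prolyl 4-hydroxylase, which hydroxylates collagen in the endoplasmic reticulum and is distinct from the EGLN enzymes. Both rose with DXR under each siRNA. P4HA1 stood at 165, 144 and 155 CPM in DXR-treated siControl cells, against 98.5, 96.0 and 73.4 CPM in untreated siControl cells (log2 fold change 0.79, SE 0.09, adjusted p 5.39e-07). P4HA2 stood at 113, 115 and 128 CPM in DXR-treated siControl cells, against 64.0, 65.1 and 53.7 CPM in untreated siControl cells (log2 fold change 0.97, SE 0.07, adjusted p 1.66e-09). All DXR libraries lay above all untreated libraries of the same siRNA for both genes. In siMondoA cells the DXR changes were 0.60 for P4HA1 (adjusted p 2.08e-05) and 0.92 for P4HA2 (adjusted p 4.25e-09). In siMlx cells they were 0.63 for P4HA1 (adjusted p 7.95e-06) and 1.20 for P4HA2 (adjusted p 6.2e-11). Over the 18 libraries the log2 CPM of the pair had a Pearson correlation of 0.945, a description over points that share groups and treatments.

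With siMlx, P4HA2 fell in untreated cells and P4HA1 fell after DXR. P4HA2 stood at 50.1, 49.9 and 49.1 CPM in untreated siMlx cells, each below siControl (log2 fold change -0.29, SE 0.07, adjusted p 0.00287). P4HA1 stood at 121, 118 and 119 CPM in DXR-treated siMlx cells, each below siControl (log2 fold change -0.37, SE 0.09, adjusted p 0.00403). In untreated cells P4HA1 was at 81.7, 74.9 and 74.2 CPM with siMlx, overlapping siControl (log2 fold change -0.21, adjusted p 0.0657). That change passed the test with a replicate block (adjusted p 0.032), with no filter (adjusted p 0.00608), with DESeq2 (adjusted p 0.04995) and without siControl replicate 3 (log2 fold change -0.34, adjusted p 0.00182). It did not pass in the other 9 of 13 alternatives. With siMondoA the changes were 0.02 for P4HA1 (adjusted p 0.861) and -0.00 for P4HA2 (adjusted p 0.988) in untreated cells. After DXR they were -0.17 (adjusted p 0.199) and -0.05 (adjusted p 0.674). P4HA2 shares 548 exon bases, 6.4% of its exon length, with its antisense gene P4HA2-AS1, which had 825 counts beside 30984.

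The promoters of this pair are shown because the genes rose together with DXR. They lie at chr10:73096817-73097116 and chr5:132227042-132227341, both on the − strand of GRCh38.p14, and are written in the direction of transcription.
P4HA1: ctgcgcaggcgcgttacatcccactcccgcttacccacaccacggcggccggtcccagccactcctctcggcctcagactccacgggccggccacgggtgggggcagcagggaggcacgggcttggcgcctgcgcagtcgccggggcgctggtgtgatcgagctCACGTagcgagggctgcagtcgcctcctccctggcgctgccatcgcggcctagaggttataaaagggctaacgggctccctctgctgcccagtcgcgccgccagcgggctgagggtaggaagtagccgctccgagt
P4HA2: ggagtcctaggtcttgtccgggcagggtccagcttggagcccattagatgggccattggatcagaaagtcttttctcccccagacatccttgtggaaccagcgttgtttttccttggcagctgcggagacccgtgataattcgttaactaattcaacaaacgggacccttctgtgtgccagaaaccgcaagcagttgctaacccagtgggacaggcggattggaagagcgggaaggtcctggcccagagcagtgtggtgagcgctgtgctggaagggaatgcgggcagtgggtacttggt
The P4HA1 window holds 1 ACGTG on the reverse strand and the P4HA2 window none.

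**Figure D3:**
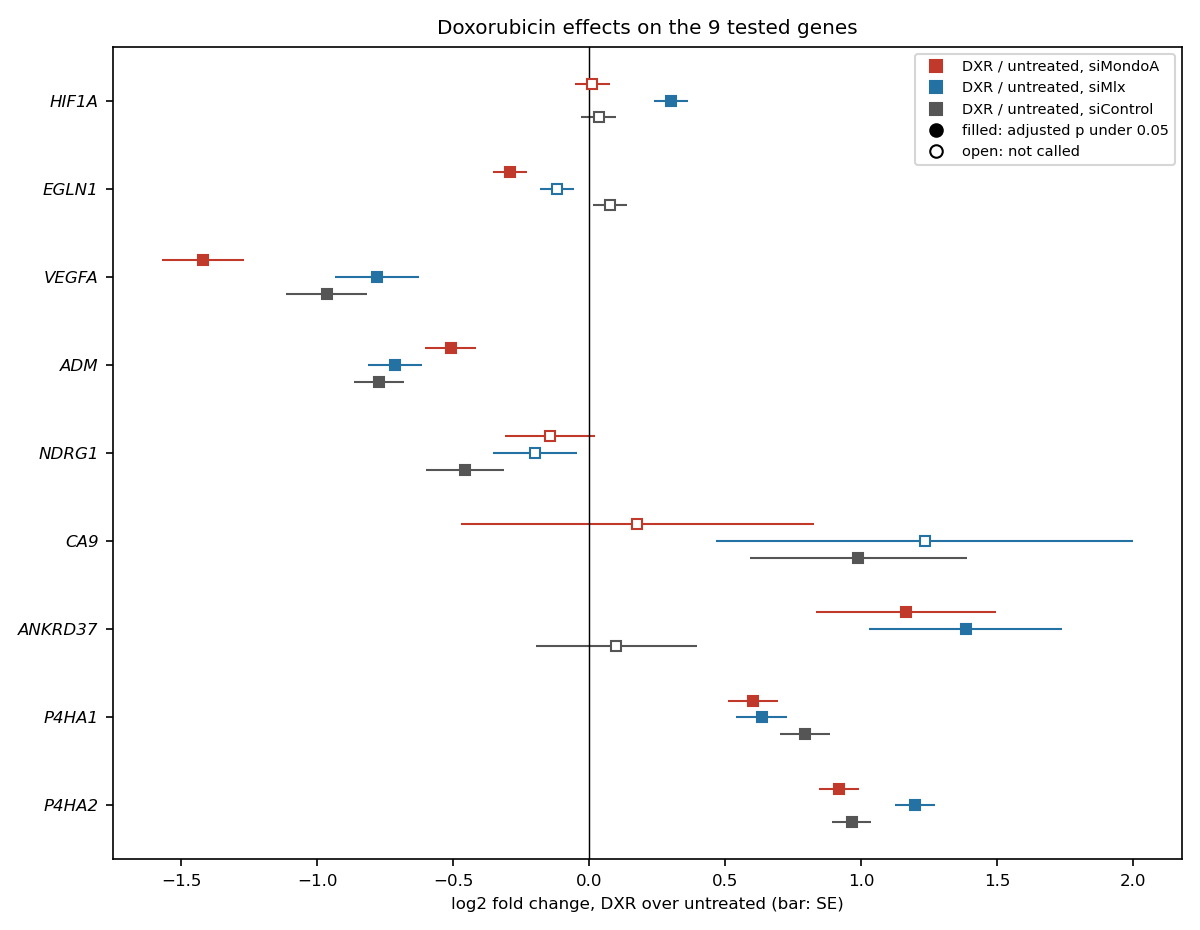
Log2 fold change with DXR for the 9 tested genes in siMondoA, siMlx and siControl cells, with bars of 1 SE and filled symbols for adjusted p under 0.05. VEGFA and ADM lie below 0 and P4HA1 and P4HA2 above 0 under every siRNA, and ANKRD37 passes the test in siMondoA and siMlx cells.

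Of 10 further collagen hydroxylases and their partners, 6 rose and 0 fell with DXR in siControl cells, where 28.1% of all tested genes rose and 28.6% fell, and 4 were not called. Their median log2 fold change was 0.34, beside -0.01 over all genes. The lysyl hydroxylase genes PLOD1 and PLOD2 rose by 0.96 and 0.79, and the prolyl 3-hydroxylase genes P3H2 and P3H1 by 0.85 and 0.82. In siMondoA cells 6 rose and 0 fell with DXR, where 26.2% of all genes rose and 28% fell. In siMlx cells 8 rose and 1 fell with DXR, where 30.9% of all genes rose and 31.2% fell. With siMlx in untreated cells, P3H2 stood at 19.8, 16.1 and 12.3 CPM, against 57.4, 54.9 and 36.8 CPM with siControl (log2 fold change -1.63, adjusted p 7.6e-07).

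CA9 is left out of the counts over the set, because of how it passed the filter. Of the other 8 tested genes, 0 rose and 5 fell with siMlx in untreated cells, where 47.9% of all tested genes were called, 24.9% higher and 23% lower. EGLN1, HIF1A and P4HA1 were not called there, and EGLN1 lay above 0. With siMondoA in untreated cells, 2 rose and 2 fell, where 46.6% of all tested genes were called, 23.3% in each direction, so this count lies near the background. After DXR, siMondoA gave 2 higher and 2 lower, where 24.8% of all genes were called (10.9% higher and 13.9% lower). After DXR, siMlx gave 1 higher and 2 lower, where 30.2% were called (14% higher and 16.2% lower). With DXR in siMondoA cells 3 of the 8 rose and 3 fell, where 54.2% of all genes were called (26.2% higher and 28% lower). In siMlx cells 4 rose and 2 fell with DXR, where 62.1% were called (30.9% higher and 31.2% lower). In siControl cells 2 rose and 3 fell, where 56.7% were called (28.1% higher and 28.6% lower). Libraries of the compared groups did not overlap in 4 of the 8 genes for siMondoA and 5 for siMlx in untreated cells, beside 55.3% and 54% of all genes, and in 5 each after DXR, beside 38.9% and 43.4%. For DXR they did not overlap in 6 genes in siMondoA cells, 7 in siMlx cells and 5 in siControl cells, beside 59.7%, 65.7% and 63.1% of all genes. The median log2 fold change of the 8 was -0.36 with siMlx in untreated cells, beside 0.02 over all tested genes, and 0.01 with siMondoA, beside 0.02. The siMondoA and siMlx comparisons share their siControl libraries, so their values are side by side and not independent.

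**Figure D4:**
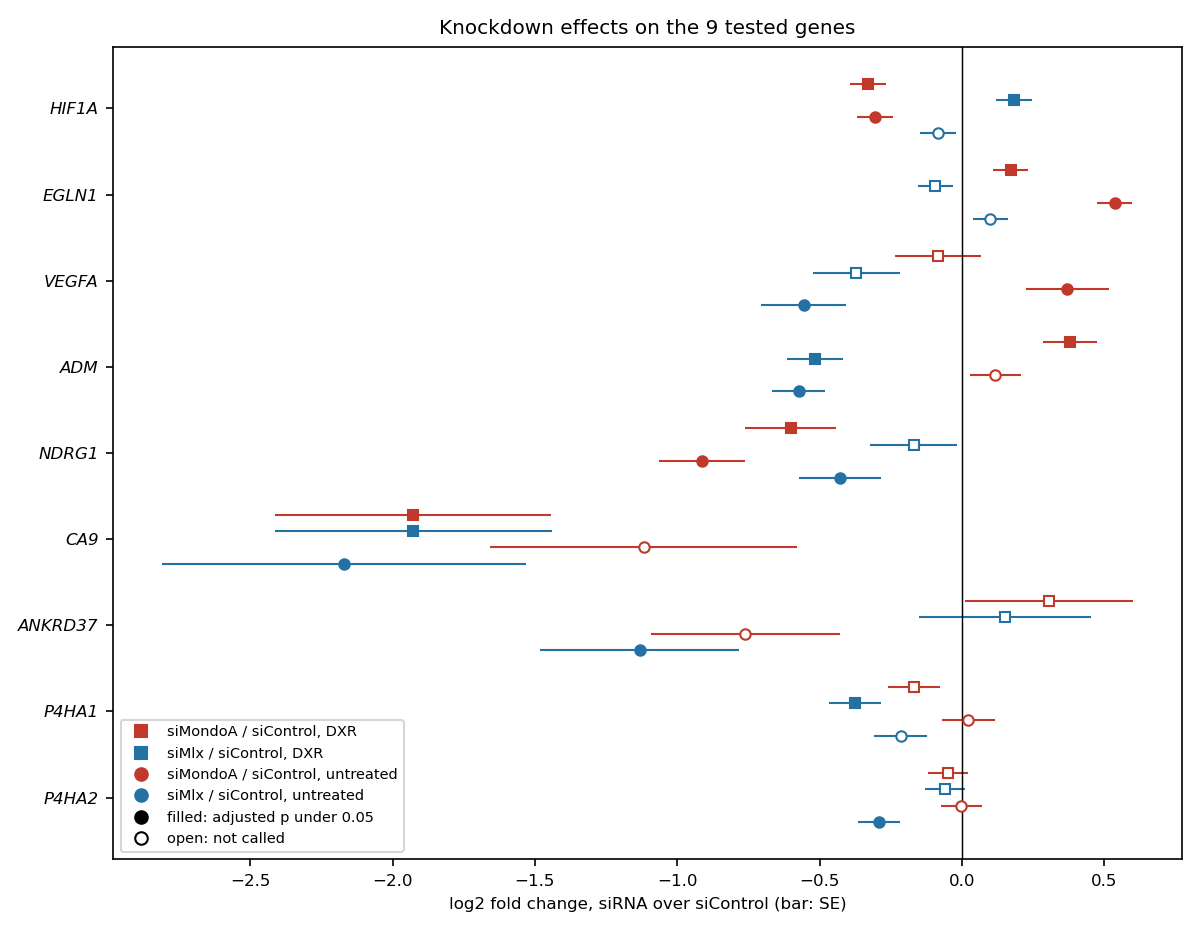
Log2 fold change of each knockdown over siControl for the 9 tested genes, with bars of 1 SE, squares for DXR-treated and circles for untreated cells, and filled symbols for adjusted p under 0.05. HIF1A lies below 0 with siMondoA in both states, and the untreated siMlx values lie below 0 for 8 of the 9 genes.

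Set directly against each other, siMondoA and siMlx cells differed in 7 of the 8 genes without treatment, with CA9 again left out. Of all genes, 58.9% were called there (28.5% higher and 30.4% lower). Libraries of the 2 groups did not overlap in 5 of the 8, beside 63.5% of all genes. VEGFA, ADM, EGLN1, P4HA2 and P4HA1 were higher in siMondoA than in siMlx cells, by 0.93, 0.69, 0.44, 0.29 and 0.24 on the log2 scale. HIF1A and NDRG1 were lower in siMondoA than in siMlx cells, with log2 fold changes of -0.22 and -0.49. The P4HA1 call was lost without siMondoA replicate 1 or 2 or siMlx replicate 2 or 3 (adjusted p 0.0964 to 0.187), and that of NDRG1 without siMondoA replicate 1 or 2 or siMlx replicate 2 (adjusted p 0.0614 to 0.0738). After DXR, 4 genes differed, where 39% of all genes were called (18.9% higher and 20% lower), and libraries did not overlap in 5, beside 47.3%. With a replicate block, 6 differed, with VEGFA (log2 fold change 0.28, adjusted p 0.0167) and P4HA1 (0.21, adjusted p 0.0373) added, both higher in siMondoA cells. Without a filter 6 also differed, and with only the groups compared 5. Over all genes, 5773 were called with a replicate block, beside 5331 in the main test. Without a filter 5273 were called, from a larger set of genes, and with only the groups compared 4708. ADM and EGLN1 were higher in siMondoA cells, by 0.90 and 0.26, and HIF1A and NDRG1 lower, with log2 fold changes of -0.51 and -0.43. Leaving out any siMlx DXR library, or siMondoA DXR replicate 1 or 3, ended the NDRG1 call after DXR (adjusted p 0.0655 to 0.132).

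Whether a knockdown effect differed between DXR-treated and untreated cells was tested by an interaction term. For siMondoA, EGLN1 was the 1 gene that passed of the 8 without CA9, where 10.1% of all genes were called (5.84% higher and 4.28% lower). The VEGFA interaction for siMondoA was -0.45 (SE 0.21, adjusted p 0.191), and it passed with a replicate block (adjusted p 0.0134) and with no filter (adjusted p 0.000368). It did not pass in the other 17 of 19 alternatives. Over all genes the siMondoA interaction calls split into 798 higher and 586 lower, 57.7% higher, against 45.4% higher with upper-quartile scaling. For siMlx, 0 of the 8 passed in edgeR's test, where 12.2% of all genes were called (6.43% higher and 5.81% lower), and HIF1A had the lowest adjusted p. Its interaction was 0.27 (SE 0.09, adjusted p 0.0599). It passed with relative log expression scaling (adjusted p 0.0468), with no filter (0.031), with a replicate block (0.0205), with only the 4 groups compared (0.032), with DESeq2 (0.0227) and without siControl replicate 3 (0.0256) or siMlx DXR replicate 1 (0.0473). In the other 12 of 19 alternatives it did not pass. At an unadjusted p under 0.05 the siMlx interaction had 4 of the 8 genes, HIF1A, EGLN1, ANKRD37 and P4HA2, where 25.9% of all genes were under that value. The siMondoA interaction had 3, EGLN1, VEGFA and ANKRD37, where 24.5% of all genes were.

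The other subunits and regulators of HIF moved unevenly. Of 18 listed, 16 were tested. With siMondoA in untreated cells 7 rose and 2 fell, where 23.3% of all tested genes were called in each direction, with a median log2 fold change of 0.12 beside 0.02 over all genes. VHL, the substrate receptor for hydroxylated HIF-1α, rose by 0.76 (adjusted p 0.00044). HIF1AN, the asparagine hydroxylase that blocks HIF's coactivator contact, stood at 214, 192 and 197 CPM in untreated siMondoA cells, against 135, 127 and 126 CPM in untreated siControl cells (log2 fold change 0.64, adjusted p 5.2e-07). The coactivator-binding inhibitor CITED2 rose by 0.47 and ARNT2, a relative of ARNT, fell by 0.65.

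With siMlx in untreated cells 4 of these 16 genes rose and 5 fell, where 24.9% of all genes rose and 23% fell, so the counts lie near the background. ARNT, the partner of HIF-1α, stood at 18.4, 17.9 and 17.1 CPM in siMlx cells, against 41.2, 41.6 and 43.6 CPM in siControl cells, with no overlap (log2 fold change -1.25, SE 0.07, adjusted p 1.9e-11). After DXR, ARNT stood at 22.4, 24.4 and 22.4 CPM with siMlx, against 42.4, 44.2 and 41.7 CPM with siControl (log2 fold change -0.89, adjusted p 8e-09). The corresponding siMondoA changes in ARNT were 0.01 (adjusted p 0.888) and -0.00 (adjusted p 0.981). In untreated cells ARNT was higher with siMondoA than with siMlx by 1.26 on the log2 scale (adjusted p 1.1e-11). HIF1AN stood at 69.4, 59.9 and 60.0 CPM in untreated siMlx cells, below every siControl library (log2 fold change -1.04, adjusted p 7.3e-10), so its change was opposite to that with siMondoA. P4HTM, a transmembrane prolyl hydroxylase that can act on HIF, fell by 0.74 with siMlx. After DXR, 1 of the 16 rose and 1 fell with siMondoA, where 10.9% of all genes rose and 13.9% fell. After DXR, 2 rose and 4 fell with siMlx, where 14% of all genes rose and 16.2% fell.

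With DXR in siControl cells 5 of the 16 rose and 3 fell, where 28.1% of all genes rose and 28.6% fell. EPAS1, which encodes the HIF-2α subunit, stood at 75.7, 78.4 and 82.9 CPM in DXR-treated siControl cells, against 30.4, 30.4 and 29.8 CPM in untreated siControl cells (log2 fold change 1.39, SE 0.09, adjusted p 3.5e-10). EPAS1 also rose with DXR in siMondoA cells, by 1.02, and in siMlx cells, by 1.59, whereas HIF1A changed by 0.01 and 0.30. CITED2 and OS9, which encodes an endoplasmic-reticulum lectin, rose with DXR in siControl cells by 1.01 and 0.66.

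Of 42 other hypoxia-induced genes, 40 were tested. Their counts were 5 higher and 17 lower with siMlx in untreated cells, where 24.9% of all genes were called higher and 23% lower. With siMondoA in untreated cells they were 13 higher and 8 lower, where 23.3% of all genes were called in each direction. After DXR they were 3 higher and 12 lower for siMondoA, where 10.9% of all genes were called higher and 13.9% lower. After DXR they were 3 higher and 15 lower for siMlx, where 14% were called higher and 16.2% lower. BNIP3L, a mitophagy receptor, stood at 52.5, 59.2 and 59.4 CPM in untreated siMlx cells, against 257, 260 and 252 CPM in untreated siControl cells (log2 fold change -2.17, adjusted p 2.4e-15). ANGPTL4, an inhibitor of lipoprotein lipase, fell by 1.38 and MAFF, a small bZIP factor, by 1.10 with siMlx. GBE1, the glycogen branching enzyme, fell by 0.89 with siMondoA in untreated cells and by 0.74 after DXR, and STC1, a secreted stanniocalcin, fell by 0.86 with siMondoA after DXR. NFIL3 and KDM4B went the other way in untreated cells. NFIL3 stood at 16.5, 20.9 and 15.5 CPM with siMondoA, against 8.29, 11.5 and 9.92 CPM with siControl. KDM4B stood at 57.5, 56.4 and 56.1 CPM, against 38.0, 37.6 and 35.4 CPM. With DXR in siControl cells 19 rose and 11 fell, where 28.1% of all genes rose and 28.6% fell, with a median log2 fold change of 0.29 beside -0.01 over all genes. AK4, a mitochondrial adenylate kinase, stood at 27.2, 22.4 and 18.8 CPM in DXR-treated siControl cells, against 3.48, 2.5 and 1.91 CPM in untreated siControl cells (log2 fold change 3.10, adjusted p 1.1e-09), and SAP30, a histone deacetylase subunit, fell by 1.86. This list shares PLOD1 and PLOD2 with the collagen hydroxylases.

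The glycolytic HIF targets, which the 10 genes leave out, had 20 tested of 21 listed. They were 8 higher and 4 lower with siMlx in untreated cells, where 24.9% of all genes were called higher and 23% lower. With siMondoA they were 1 higher and 9 lower after DXR, where 10.9% of all genes were called higher and 13.9% lower. With siMondoA they were 2 higher and 6 lower in untreated cells, where 23.3% were called in each direction. PGAM1, a phosphoglycerate mutase, fell by 0.97 and the glucose transporter gene SLC2A3 rose by 0.95 with siMondoA in untreated cells. With siMlx in untreated cells SLC2A3 rose by 0.58, the largest change of the list, and LDHA, lactate dehydrogenase A, fell by 0.52. PFKFB3 and PFKFB4, which encode regulatory enzymes of glycolysis, rose by 0.51 and 0.50.

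**Figure D5:**
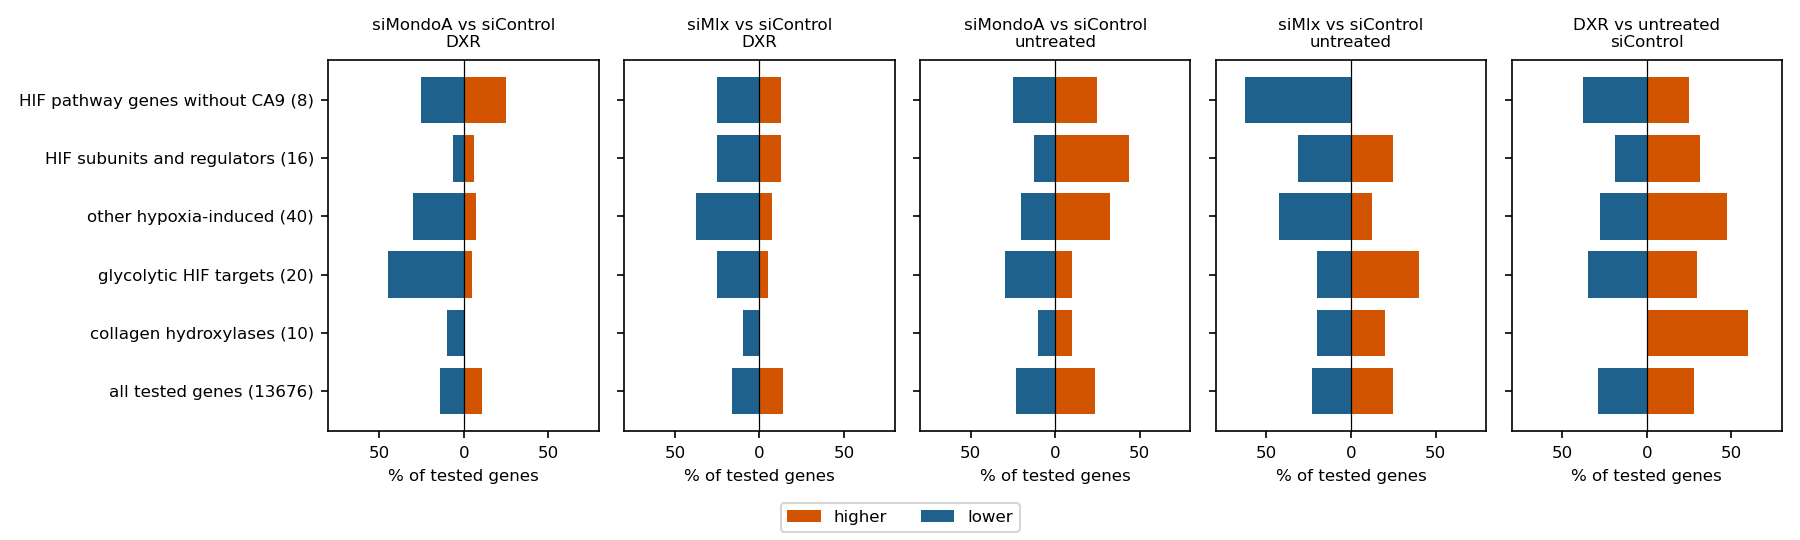
Share of tested genes called higher (right, orange) and lower (left, blue) at adjusted p under 0.05 in 5 comparisons, for the 8 HIF pathway genes without CA9, 4 related lists and all tested genes, with the number tested in brackets. The 8 genes with siMlx in untreated cells have 0 higher and 5 lower, and the collagen hydroxylases with DXR have 6 higher and 0 lower.

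Across the 18 libraries, the genes whose log2 CPM followed HIF1A most closely were TANC1, WBP2 and SEC61A2, with Pearson correlations of 0.930, 0.918 and 0.913. Those closest to VEGFA were ADAMTS15, SMARCB1 and CREB3L2, with 0.977, 0.964 and 0.958. Among the 9 genes themselves, VEGFA and ADM had a correlation of 0.787, and HIF1A and EGLN1 of -0.76. These values describe 18 libraries that share siRNAs and treatment, and carry no test. In the annotation (GENCODE 29, GRCh38) HIF1A lies at chr14:61695513-61748259 on the + strand, EGLN1 at chr1:231363751-231425044 on the − strand, VEGFA at chr6:43770184-43786487 on the + strand and ADM at chr11:10304680-10307397 on the + strand. The deposited tables give 1 value per gene, so splice forms such as those of VEGFA were not separated.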

How the data were processed

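RNA-seq of 18 libraries was analysed from tables the authors deposited: whole-number read counts per gene and RPKM values per gene, which are reads scaled to gene length and library size. Per the submitters' processing notes, bcl2fastq, TopHat2 2.1.1 and GRCh38 were used. For the counting tool, its strand setting and its annotation, none of the sources used here gives a name. Per the labels' protocols, RNA was purified on columns and libraries were made with a stranded mRNA kit. The deposited RPKM values were used to compare levels between genes, and the deposited counts for all tests. Groups came from the labels. Genes were kept with filterByExpr by group (13676 of 33121), scaled by TMM and fitted in edgeR 4.0.16 (R 4.3.3) with 1 mean per group over all 18 libraries, which left 12 residual degrees of freedom. The quasi-likelihood F test was adjusted by Benjamini-Hochberg, with a threshold of 0.05. A filter that asks for counts in at least 1 group keeps a gene through the group where it is high. The SE is the log2 fold change divided by the square root of F. CPM values are TMM-scaled. Totals of 15503423 to 29219280 counts per library set the precision, and the floor for a count of 0 is 3 counts over the group. Replicates correlated at 0.990 or more, and no pair of replicates of the same group agreed within sampling noise (chi-square per degree of freedom 3.75 to 16.4). The test was also run on simulated data, drawn with the spread estimated from these libraries. Alternatives were other scalings, other filters, DESeq2 1.42.0, only the groups compared, a replicate block, and leaving out each library in turn. The 10 genes, the related lists and the tests were chosen with earlier results of these data known. Named from each list were up to 4 called genes with the largest change, with a mean of 5 CPM or more where higher and with libraries that did not overlap. CA9, ANKRD37 and P4HA2 overlap genes on the opposite strand, as given above. HIF1A, VEGFA and P4HA1 also share 117, 188 and 47 exon bases with opposite-strand genes, 2.3%, 1.3% and 1.5% of their exon length. Promoter windows came from RefSeq on GRCh38.p14, which held entries for 8 of the 10 genes, and positions from GENCODE 29.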

Additional observations from a re-analysis of the deposited data

Results flagged for a closer look

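The change in EGLN1, the oxygen-sensing prolyl hydroxylase gene, with siMondoA differed between DXR-treated and untreated cells, by -0.366 on the log2 scale (SE 0.09, adjusted p 0.0112, interaction term in edgeR's quasi-likelihood test). The change was 0.17 after DXR and 0.54 in untreated cells. The 3 untreated siMondoA libraries were higher in EGLN1 than all other 15 libraries. Without siControl DXR replicate 2 the interaction was -0.305 with adjusted p 0.0555.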

How the results depend on the processing

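Of 99 log2 fold changes (9 genes, CA9 included, 11 comparisons), 49 were called, and 39 of these kept their direction and call under every alternative run. The other 10 lost the call in at least 1 alternative, and 0 of the 49 changed sign. Among the 39 were the CA9 changes with siMondoA and siMlx after DXR and with siMlx in untreated cells. Among the 10 was the rise of CA9 with DXR in siControl cells. CA9 passed the filter only through the DXR-treated siControl libraries, so those CA9 changes are a description. The totals of 49, 39 and 10 still hold them, and so do not measure how many of the genes changed. Over all tested genes, the share called in a comparison ran from 10.1% to 62.1%. Over 1372 alternative values, 1260 kept direction and side of the threshold, 42 lost a call, 26 gained one and 44 changed sign, all of the last among changes that were not called. Leaving out siMondoA replicate 1 lowered the genes called for the siMondoA by DXR interaction to 918, and the range over left-out libraries was 918 to 1384, beside 1384. Of the 9 genes, that interaction called 1, or 2 with no filter or a replicate block, and 0 to 1 over left-out libraries. Over all genes it called 1663 with no filter and 1818 with a replicate block, beside 1384. The siMlx by DXR interaction called 0, or 1 with relative log expression scaling, no filter, a replicate block, only the groups compared or DESeq2, and 0 to 2 over left-out libraries. Over all genes it called 1958 with no filter, 2125 with a replicate block, 1650 with only the groups compared and 1839 with DESeq2, beside 1675. Over left-out libraries it called 1220 to 1794 of all genes. CA9 was in none of these interaction calls. Upper-quartile scaling moved the share of higher calls for siMlx after DXR to 56.2%, beside 46.2%. The cause of these changes was not tested. Fits that leave out a library also hold fewer samples, and that effect was not separated from the identity of the library.

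Signs changed as follows. HIF1A with DXR in siMondoA cells (0.01) became -0.0051 with upper-quartile scaling and -0.0014 with no filter, and its siMondoA by DXR interaction (-0.02) became 0.0110 with only the groups compared. P4HA2 with siMondoA in untreated cells (-0.00) became 0.0462 with upper-quartile scaling and 0.0015 with a filter of 1 CPM in 3 libraries, and siMondoA over siMlx after DXR (0.01) became -0.0167 with upper-quartile scaling. The lowest and highest values over left-out libraries follow for each change that crossed 0. For the siMlx by DXR interaction they were -0.0277 and 0.139 (ADM) and -0.271 and 0.889 (CA9). For the siMondoA by DXR interaction they were -0.0846 and 0.0487 (HIF1A) and -0.108 and 0.0374 (P4HA2). With DXR in siMondoA cells they were -0.736 and 0.763 (CA9), -0.0516 and 0.0815 (HIF1A) and -0.267 and 0.0805 (NDRG1). With DXR in siControl cells they were -0.0452 and 0.320 (ANKRD37) and -0.0179 and 0.0634 (HIF1A). For siMlx after DXR they were -0.174 and 0.305 (ANKRD37) and -0.0942 and 0.0017 (P4HA2). For siMondoA after DXR they were -0.0846 and 0.0113 (P4HA2) and -0.240 and 0.0958 (VEGFA). For siMondoA in untreated cells they were -0.102 and 0.112 (P4HA1) and -0.0866 and 0.0585 (P4HA2). For siMondoA over siMlx after DXR they were -0.914 and 0.296 (CA9) and -0.0234 and 0.0293 (P4HA2).

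The labels state no pairing of samples. The library names do carry a further number tag, shared across the groups by libraries of the same replicate number, which the labels leave unexplained. Whether these libraries were made together cannot be told from the labels, and the main test treats them as unpaired. Deviations of same-numbered libraries correlated at a median of 0.0863 over 45 pairs (lowest -0.102), against -0.0497 over 90 other pairs, and 16 of 18 libraries correlated best with their own number. With a replicate block the genes called were 6734 for siMondoA and 6941 for siMlx in untreated cells, beside 6375 and 6553, and 1818 and 2125 for the 2 interactions, beside 1384 and 1675. Counts of 0 to 29 per library limit EGLN3, CA9 and ANKRD37.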
